A study of Mus musculus with 12 samples.

Results

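The peaks described here are sites of N6-methyladenosine (m6A) immunoprecipitation that lie close to the 3′ end of their gene in mouse liver. A peak was counted as near the 3′ end when it was annotated to 1 gene, its midpoint fell at a fraction of 0.8 or more of the gene span, counted from the 5′ end, and its midpoint lay within 500 bases of the annotated 3′ end. Of 7460 distinct peaks, 932 (12.5%) met the rule, which is 14.4% of the 6474 peaks annotated to 1 gene. They lay in 863 genes, of which 798 had 1 such peak, 61 had 2 and 4 had 3. The rule used position alone and no read count.

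The livers came from male C57BL/6 mice aged 12 weeks. One group had hepatic fibrosis after bile duct ligation (BDL), an operation that stops bile from draining, and the other group was of normal mice, called control. RNA was fragmented and pulled down with an antibody against m6A (immunoprecipitation, IP), and 3 BDL and 3 control IP libraries were compared. The labels also list 3 BDL and 3 control input libraries made without the antibody, and these were not analysed here. A difference in IP reads can therefore be one of transcript amount or of methylation, and these cannot be told apart. In whole liver, fewer cells of a type and less RNA per cell cannot be told apart either. The labels number the samples without saying that each is a separate mouse, so the p-values rest on a spread between samples that may be technical.

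m6A is the most common internal modification of mRNA. A methyltransferase complex built on METTL3 and METTL14 writes it, with WTAP, VIRMA and ZC3H13 among its cofactors, and reader proteins such as the YTH family bind it and alter the stability or translation of the transcript. In mammals the mark is concentrated around stop codons and in 3′ untranslated regions, mostly within the DRACH consensus, of which GGAC is a common core. A peak this close to the gene end lies in many genes at the distal part of the 3′ untranslated region, and no exon annotation was used here to place each one.

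The deposited table gives positions and reads but no sequence. RefSeq sequences (GRCm38.p6) of microRNA hairpins or of promoter windows of neighbouring genes covered at least 30 bases of 5 of these peaks. The genome build of the peaks is not given in the sources used here, and 688 of 861 matched gene ends lay within 10 bases of the RefSeq end in GRCm38.p6. GGAC was searched on the transcript strand of the covered bases. It was found in the Lamb3 peak (chr1:193343554-193343703, plus strand), of which 123 bases were covered. It was found also in the Prmt2 peak (chr10:76207297-76207471, minus strand), of which the 84 bases of the Mir678 hairpin were covered and held 2 matches. Lamb3 encodes a laminin chain of basement membranes and Prmt2 a protein arginine methyltransferase. The stretches around each match are printed in transcript direction, since they show where these letters occur inside the peaks, with GGAC in capitals. Both Prmt2 matches are complete DRACH sequences, and the Lamb3 match is not, since a G follows GGAC there.
Lamb3, chr1:193343603-193343632: gactggtcaccctGGACgtgcttcaaggta
Prmt2, chr10:76207391-76207409: gtGGACtgtgacttgcaga
Prmt2, chr10:76207326-76207355: tgtctcggtgcaaGGACtggaggtggcagt
Among all RefSeq promoter windows, 35.3% held GGAC in their first 123 bases and 25.6% in their first 84 bases, so a match of this kind is common. The covered 74 bases of Trim80, 75 of Acads and 42 of Rasip1 held none.

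The Lamb3 peak counted 434, 781 and 756 reads in BDL libraries, against 0, 60 and 141 in control libraries. Its log2 change of BDL over control was 2.45 (SE 1.36) and did not pass (edgeR adjusted p = 0.326). The Prmt2 peak counted 265, 550 and 720 in BDL libraries, against 88, 123 and 19 in control libraries, with a log2 change of 1.72 (SE 0.87) that did not pass either (edgeR adjusted p = 0.284). In both peaks every BDL library was above every control library, and the spread among the control libraries was wide.

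The libraries held 20540863, 35691860 and 26690519 reads in peaks in BDL, against 15254737, 19251404 and 19378332 in control. Libraries of a group resembled each other, with Pearson's r of log2 values across peaks of 0.85 to 0.87 within BDL and 0.77 to 0.81 within control, against 0.61 to 0.70 between BDL and control. Levels are given as CPM, the TMM-normalised count of a peak relative to all peak reads of its library. TMM is a scaling that allows for differences in the make-up of libraries. Cell type markers moved with the groups. The summed level of hepatocyte markers, of which 7 of 10 had a peak, was 9612 to 12954 CPM in BDL against 16227 to 19989 in control. That of cholangiocyte markers (8 of 18) was 1982 to 3159 against 471 to 596, and that of macrophage and monocyte markers (8 of 20) was 6652 to 8036 against 2201 to 4028. Stellate cell and fibroblast markers (2 of 15) gave 320 to 489 CPM in BDL against 113 to 210 in control, while endothelial markers (7 of 15) overlapped, at 509 to 760 against 550 to 695. BDL was also above control, at low levels, for T and NK cell markers (3 of 13), at 38.3 to 90.0 against 10.8 to 35.7, for the 1 neutrophil marker of 10 with a peak, at 9.75 to 13.5 against 0 to 5.52, and for B and plasma cell markers (2 of 9), at 23.5 to 31.3 against 12.8 to 15.2. Only peaks annotated to 1 gene entered these sums. No marker gene with such a peak was at 0 in all libraries, and markers without one were not measured. Their part in the results below was not tested.

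The near-end peaks had a median width of 175 bases, with quartiles of 100 and 200. Their midpoints lay from 24.5 to 499.5 bases before the gene end, with a median of 249.5, and 95 peaks reached the end itself. The plus strand held 461 and the minus strand 471. The table assigned 862 to mRNA, 46 to transcripts subject to nonsense-mediated decay and 24 to processed transcripts. For 541 of the 863 genes the near-end peak was the only peak annotated to that gene alone, and peaks shared with another gene were not counted. Just inside the limit, at 499.5 bases, lay peaks of Gatd3a, Ubtf and Poll at 143, 32.7 and 78.3 CPM in BDL and 206, 26.4 and 128 CPM in control. Just outside lay those of Tgfbi and Hira at 502.5 bases and of Pcx at 508 bases, at 40.2, 12.7 and 613 CPM in BDL and 33.6, 11.0 and 626 CPM in control. Measured from RefSeq gene ends, 840 of 930 matched near-end peaks were still within 500 bases and 13 lay beyond the end.

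Narrow peaks, of 75 bases or less, were 182 of the 932 (19.5%), against 15.2% of distal peaks (fraction of 0.8 or more) farther than 500 bases from the end, 15.9% of middle peaks and 28.7% of peaks in the 5′ part (fraction under 0.2). In 38 near-end peaks no library held a read, and all 38 were narrow. Of the near-end peaks, 63 to 72 had no read in a BDL library and 106 to 140 had none in a control library, while 1 to 20 reads were held by 2 to 7 peaks in a BDL library and 11 to 13 in a control library. Few counts lay between, and whether all zeros are counting zeros was not tested. The median count of a near-end peak was 668, 1200 and 946.5 in BDL libraries, against 383.5, 526 and 554 in control libraries.

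At the median, near-end peaks held more IP reads per base than peaks elsewhere along gene spans. The median level per 100 bases of peak was 20.3, 19.5 and 20.9 CPM in BDL libraries, against 19.3, 21.0 and 21.7 CPM in control libraries. In each of the 6 libraries it exceeded that of the distal peaks farther from the end, by 2.91 ± 1.5 CPM per 100 bases (SD, n = 6, exact sign-flip permutation test, two-sided, p = 0.03125, the smallest this design allows). It also exceeded that of peaks in the middle by 6.07 ± 1.39 and that of peaks in the 5′ part by 11.6 ± 1.46 CPM per 100 bases, in 6 of 6 libraries each (exact permutation p = 0.03125, and 0.03125 after adjustment over the 3 comparisons). The level here is a median over the peaks of a library and describes peaks that were called at all. All 6 libraries share the same peaks, so these p-values measure agreement between libraries and not the spread between peaks or genes. The part of transcript amount in these levels was not tested. Within the near-end stretch, peaks with enough reads for the test below had a median level per 100 bases of 18.1 CPM in the last 100 bases before the end, over all libraries. It was 25.9, 21.7, 23.0 and 27.7 CPM in each further 100 bases. Such peaks were 88.2% of those in the last 100 bases and 90.4% to 96.6% of those further on, so the medians leave out low peaks unevenly. The last 100 bases also held the largest share of narrow peaks, 29.2%.

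The comparison of BDL with control IP reads was made over all peaks with edgeR's quasi-likelihood test, and a peak was called when its Benjamini-Hochberg adjusted p was under 0.05. Enough reads for the test were present in 870 of the 932 near-end peaks. Of these, 41 were higher and 42 lower in BDL, together 83 peaks in 83 genes. That is 9.54% of those tested, against 9.16% of all 7083 tested peaks, 4.62% higher and 4.55% lower. The share of called peaks near the end was thus close to that of the whole table. It was 9.24% of distal peaks farther from the end, 9.12% in the middle and 8.16% in the 5′ part, and the differences between these shares were not tested. BDL and control values did not overlap in 336 near-end peaks (38.6%), 169 higher and 167 lower, against 37.4% of all tested peaks. The median log2 change of the tested near-end peaks was 0.0007, with quartiles of -0.52 and 0.66, against a median of 0.05 over all tested peaks. Most, 614 (70.6%), lay within 1 log2 unit of no change.

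**Figure D1:**
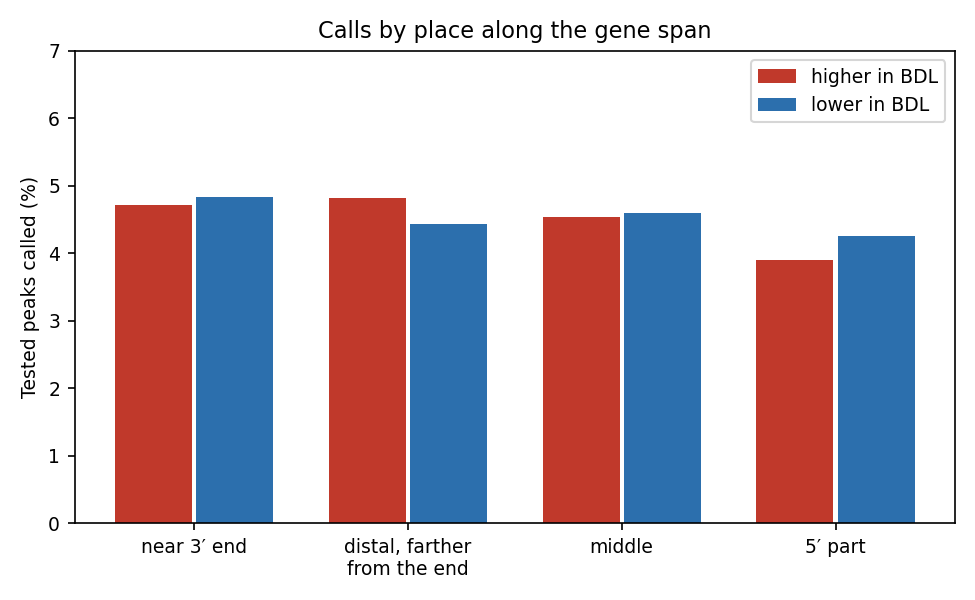
Percentage of tested peaks called higher (red) or lower (blue) in BDL than in control by place along the gene span, for peaks near the 3′ end (870 tested), distal but farther from the end (3094), in the middle (1611) and in the 5′ part (564). The paired bars are of similar height in each class.

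By distance, calls made up 4.72% of the 127 tested peaks in the last 100 bases, 3 higher and 3 lower. They made up 10.6%, 10.8%, 9.18% and 11.0% in each further 100 bases. From 100 to 200 bases 6 were higher and 15 lower, and from 400 to 500 bases 12 were higher and 5 lower. No test of these splits was made, and they describe small counts. Of the tested narrow peaks, 3 of 123 were higher and 4 lower, and of the wider ones 38 of 747 were higher and 38 lower.

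**Figure D2:**
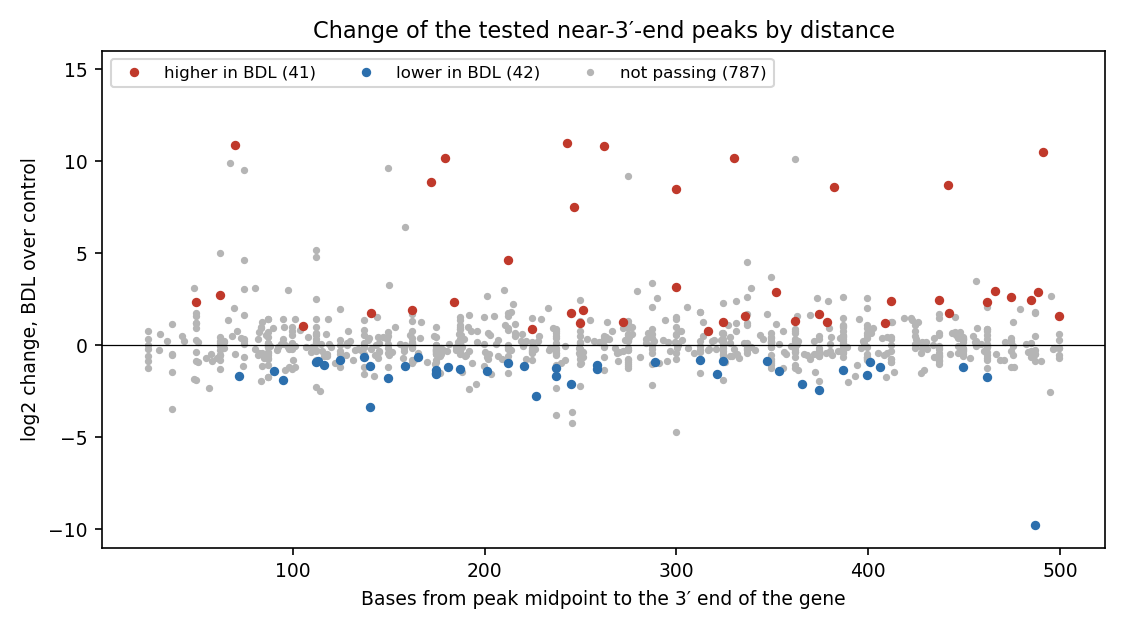
Log2 change of BDL over control for each of the 870 tested near-end peaks (vertical axis) against the bases from the peak midpoint to the 3′ end of the gene (horizontal axis), with peaks called higher in red, lower in blue and the rest in grey. Most points lie within 1 unit of 0, the called peaks with the largest values reach 11.01, and the Elovl3 peak stands alone at -9.74.

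The 41 higher peaks had log2 changes of 0.80 to 11.01, with a median of 2.41, and 24 of them were at least 4-fold higher. The values above 4.66 belong to 11 peaks with at most 4 reads in control, whose fitted size depends on the prior count. With peaks without control reads set at the bounds given further on, the median was again 2.41, since those bounds also lie above it. The 42 lower peaks ran from -9.74 to -0.63, with a median of -1.30, and 6 were at least 4-fold lower. The higher peaks had a median level of 94.4 CPM in BDL and 19.7 CPM in control, and the lower peaks 152.8 CPM in BDL and 384.2 CPM in control. In the paragraphs below, genes are grouped by what they are known to do. Beyond the peaks with the largest changes, the most reads and the list members, genes were named after their values were seen.

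Peaks of several lipid metabolism genes were called lower in BDL. Elovl3, an elongase of very long chain fatty acids, had its peak at chromosome 19, 46135095 to 46135319, 487 bases before the gene end. Its reads numbered 47, 21 and 6 in BDL libraries, against 10286, 17862 and 7876 in control libraries, that is 2.11, 0.527 and 0.194 CPM against 749, 1077 and 444 CPM. All 3 BDL libraries were near 0, and the log2 change was -9.74 (SE 0.87, edgeR adjusted p = 0.00121). Slc27a2, a very long chain acyl-CoA synthetase and fatty acid transporter, fell as well, at 415, 283 and 233 CPM in BDL against 867, 1002 and 916 CPM in control (log2 change -1.58, edgeR adjusted p = 0.00708). Further decreases were called for Tlcd2, a membrane protein with a TLC domain (-1.65), Acbd4, which binds acyl-CoA (-1.19), Ppcs, an enzyme of coenzyme A synthesis (-0.94), and Ebp, a sterol isomerase of cholesterol synthesis (-0.64). Elovl3 and Tlcd2 also passed in each of the 6 fits that left out 1 library. Slc27a2 passed in 5, Acbd4 in 2, and Ppcs and Ebp in 1.

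Bile acid uptake and peroxisomal or glyoxylate metabolism were represented too. The peak of Slc10a1, the sodium-dependent bile acid uptake transporter of hepatocytes, lay at chromosome 12, 80953233 to 80953432, 149.5 bases before the gene end, and is the only peak annotated to that gene alone. It reached 1176, 806 and 765 CPM in BDL, against 2390, 3590 and 3377 CPM in control, so that the highest BDL value was less than the lowest control value (log2 change -1.77, SE 0.23, edgeR adjusted p = 0.00546). Grhpr, glyoxylate reductase, fell by 1.15 on the log2 scale (756 ± 155 CPM in BDL and 1676 ± 132 CPM in control, SD, n = 3 each), and Agxt, which transaminates glyoxylate in peroxisomes, fell by 0.63 (2121 ± 162 CPM in BDL and 3283 ± 352 CPM in control). Pipox, a peroxisomal oxidase of sarcosine and pipecolate, and Dhrs4, a peroxisomal carbonyl reductase, had log2 changes of -1.31 and -1.05. Slc10a1 passed in all 6 fits without 1 library, Grhpr and Pipox in 4, Dhrs4 in 1 and Agxt in none (edgeR adjusted p 0.0587 to 0.143).

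Among enzymes of other substrates, the carboxylesterase Ces3b had its peak at chromosome 8, 105093702 to 105093876. Its values were 15.7, 12.1 and 12.1 CPM in BDL, against 125, 177 and 104 CPM in control, a log2 change of -3.35 (SE 0.31, edgeR adjusted p = 0.00131) that passed in all 6 fits without 1 library. The aldo-keto reductases Akr1c6 and Akr1c13 changed by -2.13 and -1.40 and passed in 3 of those fits each. Ces3b, Akr1c6 and Akr1c13 each have close copies beside them in the genome, and how the authors counted reads shared between copies is not given in the sources used here, so their values are uncertain.

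Genes of complement, coagulation and other secreted or immune proteins were among the decreases. C8a, a chain of the terminal complement complex, had 1547, 1546 and 1906 CPM in BDL, against 4093, 4841 and 5933 CPM in control (log2 change -1.57, SE 0.18, edgeR adjusted p = 0.00346, and past the threshold in all 6 fits without 1 library). Mbl2, the mannose-binding lectin that starts a complement pathway, had 3438, 3947 and 3447 CPM in BDL, against 7279, 8531 and 12448 CPM in control (log2 change -1.38, edgeR adjusted p = 0.00982, passing in 4 such fits). F11, a coagulation factor, fell by 1.35 on the log2 scale and Pigr, the epithelial receptor that carries polymeric immunoglobulins, by 0.93. F11 passed in 2 and Pigr in 1 of the 6 fits without 1 library. Apol9a and Apol9b, a pair of neighbouring apolipoprotein L genes, had log2 changes of -1.25 and -1.14, at 6482 ± 813 CPM in BDL and 15442 ± 4926 CPM in control for Apol9a (SD, n = 3 each). In both, control replicate 1 was lowest of its group, both passed in 1 of the 6 fits without 1 library, and since they are near-copies that can share reads they are uncertain as separate results.

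Signalling and regulatory genes were also among the decreases. Yap1, the transcriptional coactivator of the Hippo pathway, had 67.0, 64.8 and 52.8 CPM in BDL, against 135, 215 and 176 CPM in control (log2 change -1.51, SE 0.24, edgeR adjusted p = 0.0107). Leaving out 1 library kept the call in 4 fits of 6, with adjusted p up to 0.056 in the others. Sgk2, a serum and glucocorticoid regulated kinase, fell by 1.19 on the log2 scale (251 ± 22.3 CPM in BDL and 571 ± 49.3 CPM in control, SD, n = 3 each) and passed in all 6. Ticam1, the adaptor TRIF of Toll-like receptors, fell by 0.79 and passed in 3. Tsc22d1, a leucine zipper regulator, had 6.91, 11.9 and 18.3 CPM in BDL, against 51.8, 56.9 and 51.9 CPM in control, a log2 change of -2.11 (SE 0.43, edgeR adjusted p = 0.0251, passing in 3). The small heat shock protein gene Hspb8, the endocytic recycling gene Ehd3 and the histone gene H2ax had log2 changes of -1.19, -1.30 and -1.09. Ehd3 and H2ax passed in 3 of the 6 fits without 1 library and Hspb8 in none.

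The remaining decreases were of varied kinds. Hs3st6, a heparan sulfate sulfotransferase, changed by -1.90 and passed in none of the fits without 1 library (edgeR adjusted p 0.051 to 0.105). B3gat3, which completes the linker of glycosaminoglycans, changed by -1.12. Tmie, a protein of hair cell mechanotransduction, changed by -2.41, at 13.8 ± 5.29 CPM in BDL and 73.3 ± 35.6 CPM in control (SD, n = 3 each). Rcl1 (ribosomal RNA processing), Mrm3 (mitochondrial ribosomal RNA methylation) and Tmem126b (assembly of respiratory complex I) had log2 changes of -0.91, -0.84 and -0.84. The other called decreases were Pdzd11, Mad2l1bp, Hdhd3, Pbld1, AI182371, Txndc15, Ss18l2 and Eef1akmt1, with log2 changes from -1.73 to -0.77. Like Hs3st6, the peaks of B3gat3, Pbld1 and Ss18l2 passed in none of the fits without 1 library. Those of Tmie, Tmem126b, Pdzd11, Mad2l1bp, Hdhd3 and Eef1akmt1 passed in 1, Mrm3 and Txndc15 in 2, and Rcl1 and AI182371 in 3.

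**Figure D3:**
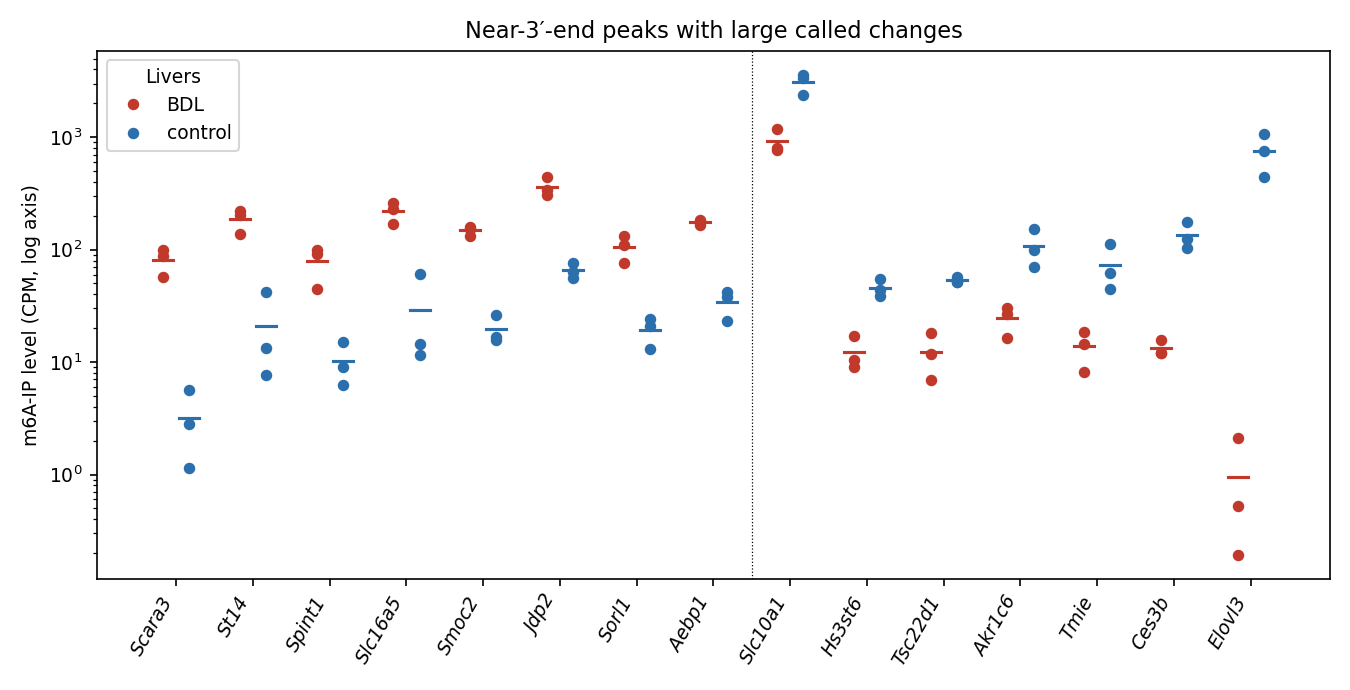
IP level in CPM (log axis) of 15 called near-end peaks with large changes, 8 higher (left of the dotted line) and 7 lower in BDL, with 1 point per library and a bar at the mean of 3, BDL in red and control in blue. The BDL and control points overlap in none of the 15, since only peaks with groups apart were picked.

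Among the increases, St14 and Spint1 are a known enzyme and inhibitor pair. St14 encodes matriptase, a membrane serine protease of epithelia, and Spint1 its Kunitz-type inhibitor. The St14 peak, at chromosome 9, 31089602 to 31089801, had 138, 205 and 219 CPM in BDL, against 41.6, 13.2 and 7.72 CPM in control. The Spint1 peak, at chromosome 2, 119248949 to 119249173, had 44.6, 91.8 and 99.3 CPM in BDL, against 6.26, 15.1 and 9.12 CPM in control. The log2 changes were 3.17 (SE 0.61, edgeR adjusted p = 0.0209) for St14 and 2.95 (SE 0.47, edgeR adjusted p = 0.011) for Spint1. St14 passed in 2 and Spint1 in 4 of the 6 fits without 1 library. St14 is also in the cholangiocyte marker list, whose summed level was higher in every BDL library than in any control library. The St14 peak is itself part of that sum, and the part of cell numbers was not tested.

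Genes of matrix and adhesion were among the increases. Smoc2, a secreted calcium-binding matrix protein, had its peak at chromosome 17, 14404351 to 14404525, with 152, 133 and 159 CPM in BDL, against 15.8, 16.8 and 26.4 CPM in control (log2 change 2.91, SE 0.29, edgeR adjusted p = 0.00182). Aebp1, which encodes a secreted protein that binds collagen, had 176, 184 and 166 CPM in BDL, against 41.9, 23.4 and 38.1 CPM in control (log2 change 2.35, SE 0.27, edgeR adjusted p = 0.00342). Scara3, a class A scavenger receptor family member, had 57.3, 87.3 and 98.3 CPM in BDL, against 5.68, 1.15 and 2.82 CPM in control (log2 change 4.66, SE 0.62, edgeR adjusted p = 0.00561). Smoc2, Aebp1 and Scara3 passed in all 6 fits without 1 library. Itga3, the integrin alpha chain of a laminin receptor, rose by 2.34 (100.5, 106 and 155 CPM in BDL, against 22.6, 36.8 and 12.2 CPM in control) and passed in 4.

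Immune and cytoskeletal genes were next. Mpeg1, the pore-forming protein perforin-2 of macrophages, had 160, 177 and 188 CPM in BDL, against 62.9, 58.8 and 106 CPM in control (log2 change 1.20, edgeR adjusted p = 0.0336). Tnfaip8l2, a negative regulator of immune receptor signalling, had a log2 change of 1.69 and Cmtm7, a chemokine-like factor family member, of 0.89. Tmsb4x, thymosin beta 4, which sequesters actin monomers, had 11630, 13245 and 16480 CPM in BDL, against 4395, 5071 and 8105 CPM in control (log2 change 1.23, edgeR adjusted p = 0.026). Iqgap1, a scaffold of the actin cytoskeleton, changed by 2.34. Mpeg1, Cmtm7, Tmsb4x and Iqgap1 passed in 1 and Tnfaip8l2 in 3 of the 6 fits without 1 library. Mpeg1 is itself in the macrophage and monocyte marker list, whose summed level was higher in every BDL library than in any control library. Its own peaks are part of that sum, and the part of cell numbers was not tested.

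Transcription factors formed another group. Jdp2, a repressor of the AP-1 family, had its peak at chromosome 12, 85639306 to 85639480, with 303, 339 and 446 CPM in BDL, against 63.8, 55.6 and 76.4 CPM in control (log2 change 2.47, SE 0.23, edgeR adjusted p = 0.0013, passing in all 6 fits). Myc, the growth-promoting factor, counted 441, 2127 and 1027 reads in BDL libraries, against 0, 0 and 4 in control libraries (edgeR adjusted p = 0.00643, passing in 5). Nupr1, a stress-induced nuclear protein, had 32.7, 28.3 and 33.8 CPM in BDL, against 4.44, 6.21 and 3.55 CPM in control, a log2 change of 2.74 that passed in 3. Atoh8, a basic helix-loop-helix factor, changed by 2.41 and passed in 2.

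Secreted factors, sorting and signalling genes were among the increases too. Sema3f, a secreted semaphorin, had 475, 509 and 508 CPM in BDL, against 153, 183 and 164 CPM in control (log2 change 1.58, SE 0.15, edgeR adjusted p = 0.0017). Metrnl, a secreted meteorin-like protein, had 412, 386 and 402 CPM in BDL, against 143, 124 and 129 CPM in control (log2 change 1.6, SE 0.16, edgeR adjusted p = 0.0017). Sorl1, a sorting receptor, had 75.7, 110 and 131 CPM in BDL, against 23.9, 13.1 and 21.0 CPM in control (log2 change 2.45, edgeR adjusted p = 0.00679), and the PDZ scaffold gene Gipc1 changed by 1.25 (edgeR adjusted p = 0.00575). All 4 passed in each of the 6 fits without 1 library. The signalling genes Rgs10 and Prag1 had log2 changes of 1.90 and 1.77, the vesicle priming gene Unc13b of 1.75, the adaptor complex gene Ap5b1 of 1.07 and the ubiquitin ligase scaffold gene Cul1 of 0.80. Unc13b passed in 5 of those fits, Prag1 in 3, Rgs10 in 2, and Ap5b1 and Cul1 in 1.

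In metabolism and DNA replication, Pgd, an enzyme of the pentose phosphate pathway, had a log2 change of 1.27. Slc16a5, of the monocarboxylate transporter family, had 261, 229 and 170 CPM in BDL, against 14.4, 11.6 and 61.3 CPM in control (log2 change 2.92, SE 0.63, edgeR adjusted p = 0.0303). Control replicate 3 stood above the other control libraries there, and the peak passed in 1 fit without a library. Mcm3, a subunit of the replicative helicase, changed by 1.33 (edgeR adjusted p = 0.0494) and passed in none of those fits (0.0774 to 0.186). Rnaseh2b, a subunit of the ribonuclease that removes ribonucleotides from DNA, changed by 1.27 and passed in 5. Tmem98 and 2010300C02Rik were among the other called increases with over 4 reads in control, at 1.76 and 2.63. Tmem98 passed in 2 of the fits without 1 library, and Pgd and 2010300C02Rik in 1.

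In 10 of the higher peaks control was at or near 0. With no read in any control library were Igsf3, an immunoglobulin superfamily member, Il1r2, the decoy receptor of interleukin-1, Gjc1, a connexin, Pabpc1l, a poly(A)-binding protein, Popdc2 and 4930438A08Rik. Against a floor of 3 reads in each control library, they were at least 57.7-fold, 52.4-fold, 51.7-fold, 40.2-fold, 32.3-fold and 32.0-fold higher in BDL, in that order. Il1r2 held 289, 232 and 341 reads in BDL libraries and Igsf3 held 214, 312 and 476. Angpt4, an angiopoietin, Adora2b, an adenosine receptor, Rasd1, a Ras-like GTPase, and Prrx2, a homeobox factor, held 2 reads each in control. The BDL over control ratios were 532 for Angpt4 (95% counting interval 147 to 4399), 448 for Adora2b (124 to 3704), 417 for Rasd1 (115 to 3448) and 230 for Prrx2 (63.5 to 1902). These bounds and intervals cover counting error only and hold only where the zeros are counting zeros. No lower peak had a BDL group without reads. Of the 6 peaks without control reads, Igsf3, Il1r2 and Gjc1 passed in 3 of the 6 fits without 1 library and the other 3 in none. Angpt4, Adora2b and Rasd1 passed in 4 of those fits and Prrx2 in 1. The Prrx2 call was borderline, with an edgeR adjusted p = 0.0498 over all libraries and up to 0.179 without 1.

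The calls depended on single libraries. Of the 83 peaks, 34 were still called without BDL replicate 1, 16 without BDL replicate 2, 19 without BDL replicate 3, 57 without control replicate 1, 40 without control replicate 2 and 61 without control replicate 3. In these fits the higher and lower calls near the end numbered 16 and 22, 9 and 9, 10 and 9, 40 and 30, 35 and 16, and 57 and 31, in the same order. The 15 peaks that passed in all 6 fits were 8 higher, those of Aebp1, Metrnl, Jdp2, Scara3, Smoc2, Gipc1, Sorl1 and Sema3f, and 7 lower, among them those of Tlcd2, Slc10a1, Elovl3, Sgk2, C8a and Ces3b. None of the 83 changed direction under any alternative run. BDL and control values overlapped in none of the 83, so a change of direction was unlikely from the start. With library totals in place of TMM, which moved the median over all peaks by 0.328 on the log2 scale, 77 near-end peaks were called higher and 21 lower. That is 78.6% higher among calls, against 49.4% with TMM.

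The highest levels per 100 bases of peak, averaged over all 6 libraries, belonged to Hp, Tmsb4x, Apol9a, Apol9b, Mbl2 and Apoa1, at 10962, 4910, 4872, 4410, 2896 and 2376 CPM per 100 bases. The peak of Hp, haptoglobin, an acute phase protein that binds free haemoglobin, had 30578, 25458 and 25682 CPM in BDL, against 18360, 12336 and 19128 CPM in control. The groups did not overlap, and the log2 change of 0.71 (SE 0.20) did not pass (edgeR adjusted p = 0.0598). The Hp peak passed with library totals alone (edgeR adjusted p = 0.0204) and in DESeq2 (adjusted p = 0.00162). The peak of Apoa1, the main protein of high-density lipoprotein, lay at the very end of its gene and had 1334 ± 52.7 CPM in BDL and 1566 ± 109 CPM in control (SD, n = 3 each, log2 change -0.23, edgeR adjusted p = 0.341).

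Near-end peaks held 18.0%, 17.03% and 18.2% of the reads in peaks in BDL libraries, against 14.1%, 15.2% and 17.7% in control libraries. The means were 17.7 ± 0.61% in BDL and 15.7 ± 1.81% in control (SD, n = 3 each), a difference of 2.07 percentage points with an exact permutation p = 0.2, two-sided, where 3 against 3 cannot go below 0.1. The Hp peak alone took 2.84% to 3.32% of all reads in BDL and 1.06% to 1.75% in control. Without it the shares were 15.2%, 14.6% and 15.7% in BDL, against 12.7%, 14.2% and 16.2% in control, a difference of 0.76 percentage points (exact permutation p = 0.6). The groups overlapped in both versions, and the alternatives gave differences of the same sign.

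**Figure D4:**
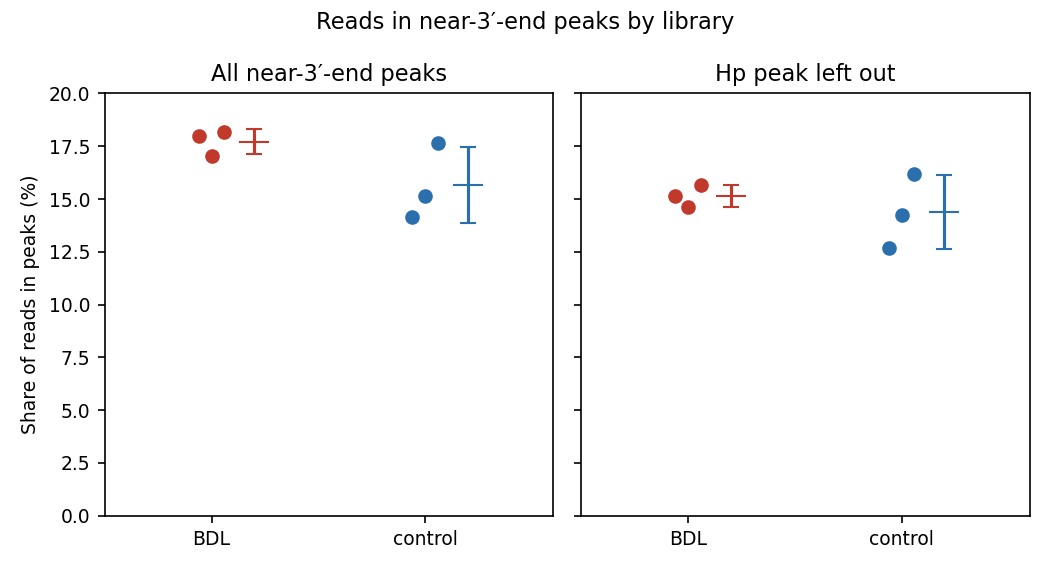
Share of all reads in peaks that fell in near-end peaks (%), by library, with all near-end peaks (left) and without the Hp peak (right). Points are libraries, and bars with whiskers are means and SD of 3, BDL in red and control in blue. Control replicate 3, at 17.7%, lies within the BDL range of 17.03% to 18.2%.

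Gene lists of liver functions and cell types were checked for near-end peaks. Of 582 genes in 26 lists, 242 had a peak of their own and 39 had one near the 3′ end, giving 41 tested peaks. Of these, 5 rose (Myc, Smoc2, Mcm3, St14 and Mpeg1) and 4 fell (among them Slc10a1, Elovl3 and Yap1). Over all tested peaks 9.16% were called. The median log2 change was 0.33 over the 41, against 0.05 over all tested peaks. The lists were chosen with earlier results of these data known, so these counts and those by list below are descriptive and were not tested. No list had more than 5 tested near-end peaks. The lists for the growth hormone axis, the circadian clock, xenobiotic metabolism, endothelial cells and neutrophils had none.

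In the bile acid list, 1 of 3 near-end peaks fell, that of Slc10a1. The sterol half-transporter gene Abcg5 had 267 ± 65.9 CPM in BDL and 196 ± 46.2 CPM in control, and Baat, which conjugates bile acids to amino acids, 208 ± 42.5 CPM in BDL and 263 ± 33.7 CPM in control (SD, n = 3 each). Neither passed. The acyl-CoA dehydrogenase genes Acadm and Acads, of fatty acid oxidation, had log2 changes of -0.24 and -1.44 that did not pass. In sterol and fatty acid synthesis 1 of 3 fell, Elovl3. There Insig1, which holds back sterol synthesis, had 116, 22.8 and 43.6 CPM in BDL, against 141, 218 and 248 CPM in control (edgeR adjusted p = 0.0954), and Acaca, acetyl-CoA carboxylase, changed by -0.35 without passing. Insig1 passed without BDL replicate 1, where the adjusted p was 0.0278, and with DESeq2 (0.00865).

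Of 5 near-end peaks of hepatocyte transcription factors in 4 genes, none passed. Cebpb had 4609 ± 1050 CPM in BDL and 3659 ± 1556 CPM in control, and Nr1i2, the pregnane X receptor, 137 ± 31.7 CPM in BDL and 104 ± 36.9 CPM in control (SD, n = 3 each). Of 4 immediate early genes 1 rose, Myc. Atf3, a stress-induced factor, had 25.2, 52.4 and 51.0 CPM in BDL, against 9.61, 0.362 and 0 CPM in control, with an edgeR adjusted p = 0.195 that was 0.0133 without control replicate 1 and a DESeq2 adjusted p = 0.0379, and Ier2 changed by 0.49 without passing. None of 4 near-end peaks of inflammatory signalling genes passed, among them Tlr2, Tnfrsf1a and Nfkbia with log2 changes of 0.32, 0.26 and -0.19.

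Of 3 TGF-beta and Hippo genes 1 fell, Yap1. Tgif1, a corepressor of SMAD signalling, had 170, 193 and 173 CPM in BDL, against 140, 50.2 and 80.6 CPM in control (edgeR adjusted p = 0.13, and 0.0262 without control replicate 1), and the narrow Smad3 peak changed by -0.27. In the m6A machinery, 2 of the writer complex cofactors had a near-end peak and neither passed. Zc3h13 had 11.4, 2.31 and 4.002 CPM in BDL, against 63.8, 8.56 and 16.1 CPM in control, and Virma 5.92, 6.77 and 26.0 CPM in BDL, against 8.88, 0.121 and 17.6 CPM in control. In both the libraries within a group differed several-fold. Single near-end peaks of Got1, an aspartate aminotransferase (log2 change 0.94), Osgin1, an oxidative stress gene (-0.94), and Trib3, of endoplasmic reticulum stress (-0.23), did not pass. Got1 passed with library totals alone (edgeR adjusted p = 0.0302), with the replicate number as a block (0.0365), without control replicate 1 (0.0320) and in DESeq2 (adjusted p = 0.00753). Osgin1 passed without control replicate 1 (edgeR adjusted p = 0.0188) and in DESeq2 (adjusted p = 0.0238).

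Among cell type markers, 1 of 3 cholangiocyte peaks rose, that of St14, and 1 of the 2 Mpeg1 peaks of the macrophage list. Pdgfrb, a stellate cell receptor, had 81.9 ± 20.1 CPM in BDL and 43.0 ± 15.2 CPM in control (SD, n = 3 each, log2 change 0.93, edgeR adjusted p = 0.149). The T cell genes Cd8b1 and Lck and the B cell gene Cd79b had log2 changes of 2.70, 1.45 and 0.83, each with 1 control library at 0, and none passed.

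Peaks of the same gene could be set side by side. In 45 genes with at least 2 tested near-end peaks, all near-end peaks of the gene had the same sign in 31, and they lay less than 1 log2 unit apart in 34, with a median spread of 0.59. In 3 of these genes, Mpeg1, Slc16a5 and Atoh8, 1 of the near-end peaks was called, and in 0 were all called. The Mpeg1 peak 83.5 bases from the end had 68.8, 62.8 and 52.1 CPM in BDL, against 5.39, 11.3 and 75.01 CPM in control, and passed only without control replicate 3 (edgeR adjusted p = 0.0173).

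Of the 83 genes with a called near-end peak, 22 had 37 other tested peaks annotated to that gene alone. Of these 37, 8 were called in the same direction and 0 in the opposite one, where 9.16% of all tested peaks were called in either direction, and 31 had the same sign. Scara3 rose also in the middle of the gene, by 4.12 on the log2 scale. Smoc2 rose also at a peak 1077 bases from the end, with 898, 1143 and 1185 reads in BDL libraries, against 2, 2 and 0 in control libraries. Slc27a2 fell by 1.65 at a peak in the 5′ part of the gene, and Yap1, Sgk2, Ehd3 and Tmem126b each had another called decrease, and Atoh8 another called increase. The 6 peaks of the other sign lay in Tsc22d1, Ap5b1, Mad2l1bp and Grhpr, and none of them passed. The Tsc22d1 peak 628 bases from the end had 132 ± 5.78 CPM in BDL and 122 ± 71.5 CPM in control (SD, n = 3 each, log2 change 0.11).

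**Figure D5:**
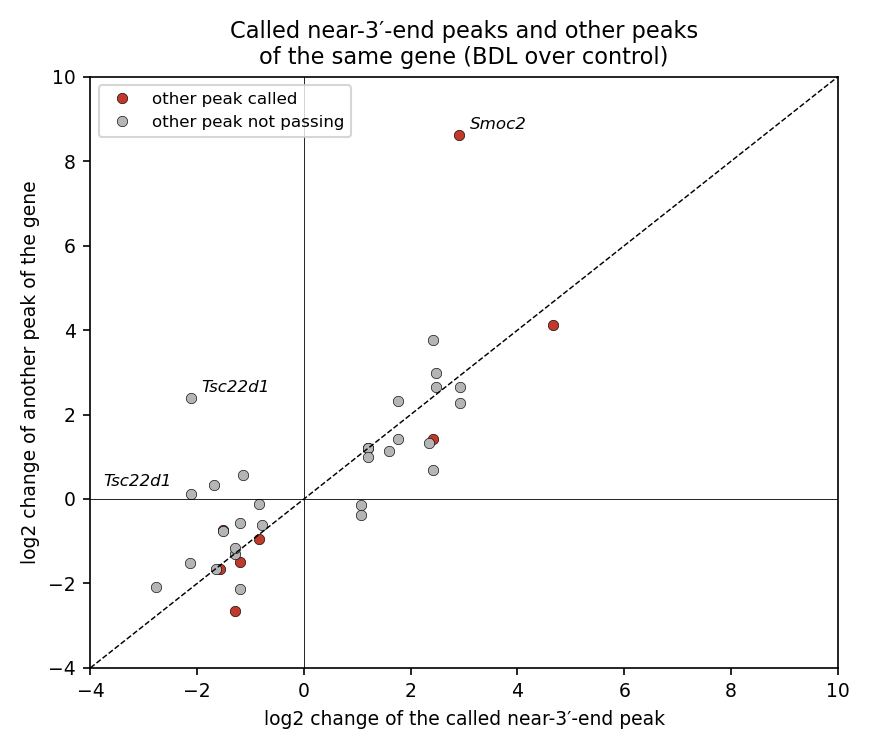
Log2 change of BDL over control of another tested peak of the gene (vertical axis) against that of the called near-end peak (horizontal axis), for 37 other peaks in 22 genes, with called other peaks in red and the rest in grey. The dashed line marks equal change, Smoc2 lies above it and the 2 Tsc22d1 points lie above 0 at a near-end change of -2.11.

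Whether a near-end peak changed apart from the rest of its gene was tested with edgeR's diffSpliceDGE, over 3122 peaks in 1288 genes. Of the 337 near-end peaks in it, 0 passed, and 4 had an unadjusted p under 0.05. Over all peaks 7 (0.224%) passed. The near-end peak of Tsc22d1 gave a log2 difference of -1.30 from its gene as a whole, this peak included (diffSpliceDGE adjusted p = 0.654). In a second model that summed the near-end reads and the other reads of each of 261 genes, 0 genes (0.0%) passed edgeR and 35 had an unadjusted p under 0.05. The median log2 difference of change was -0.17, with quartiles of -0.88 and 0.36. Smoc2 came nearest to the threshold (edgeR adjusted p = 0.104), and no size is given for it because its other reads in control numbered 2, 2 and 0. For Tsc22d1 the second model gave a log2 difference of -2.52 between near-end and other reads (SE 0.54, edgeR adjusted p = 0.196). The models differed in how many unadjusted p fell under 0.05. Passing by 0 near-end peaks or genes does not show that near-end peaks change together with their gene.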

How the data were processed

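The deposited table holds, per the file headers, the raw read counts of 6 IP libraries in merged peaks, with a column of RPM beside each, a score that equals each count scaled by the library total and was not used further. The submitters' processing notes name HISAT2, Bowtie2 2.2.8, fastp and bcl2fastq 2.17 and give no roles. Which caller, counter, strand setting, build and annotation were used is not given in the sources used here. Of 8649 lines, 7460 are distinct peaks, and only these entered totals and tests. Starts were turned to count from 1. Input libraries were not analysed here, so no correction for expression was made.

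Low counts were removed with filterByExpr and libraries scaled with TMM. BDL and control were compared over all peaks with edgeR 4.0.16 (robust quasi-likelihood, R 4.3.3), with DESeq2 1.42.0 as an alternative, and other peaks of a gene with diffSpliceDGE. The edgeR and diffSpliceDGE fits were run on simulated counts with known changes. These gave every peak the same spread setting, so they checked the code and not the fit to these data. The SE is the log2 change divided by the square root of the F value. The read share and the median level were tested by exact permutation (scipy 1.17.1).

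The near-end peaks and gene lists were chosen with earlier results of these data known. Named by rule were the 8 highest and 8 lowest called log2 changes with groups apart and a mean above the median (28.3 CPM), up to 3 peaks of each list, the 6 highest levels per 100 bases, peaks called against their gene, and 3 on each side of the 500 base limit. A few of these are not reported here. Alternatives changed the tool, scaling, filter, width, distance limit and gene end, or left out a library.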

Additional observations from a re-analysis of the deposited data

How the results depend on the processing

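Without 1 library in turn, the number of all called peaks (649) ranged from 155 to 611, the near-end peaks called higher (41) from 9 to 57 and lower (42) from 9 to 31, and the called list members (9) from 4 to 11. DESeq2 called 1169 peaks, 83 near-end peaks higher, 71 lower and 14 in lists, and included all 83 of the edgeR calls. Library totals alone called 77 near-end peaks higher and 21 lower. With the replicate number as a block 287 peaks were called, 19 near-end peaks higher and 19 lower, of which 35 were among the 83. Deviations of same-numbered libraries correlated at 0.0295, 0.00993 and 0.00915, against -0.0265 to 0.0186 for differently numbered ones. With so few libraries this cannot show whether the numbers mark pairs, which the labels do not say. The block is thus one more alternative. Limits of 250 and 1000 bases gave 15 and 70 higher and 25 and 80 lower, that is 9.30% and 9.57% of those tested, and RefSeq gene ends, chosen after seeing the data, gave 39 and 56 (10.4%). The other scaling, filter, width and size alternatives left each of these counts within 1.5 times. Against other peaks of the gene, 1 near-end peak passed without BDL replicate 1, 1 without control replicate 1 and 1 without control replicate 2, in place of 0, and 0 in the other fits, the replicate block among them. The difference in read share ranged from 1.32 to 3.07 percentage points without 1 library. Of peaks that passed no test, library totals alone reversed the log2 change of Apoa1 (0.0974), Acadm (0.0913), Trib3 (0.0977), Nfkbia (0.128) and Smad3 (0.0492). Leaving out 1 library in turn gave both signs for Trib3 (-0.60 to 0.48), Smad3 (-0.45 to 0.0566), Virma (-0.49 to 1.52) and Ubtf (-0.0145 to 0.79). The causes were not tested. In narrow peaks and where control libraries held no reads, depth limits what a fold can show.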
